A study of Mus musculus with 2 samples.

Results

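The 10 genes described here mark mural cells, the smooth muscle cells and pericytes that wrap blood vessels, and were followed through RNA sequencing of mouse gastrocnemius muscle. They were taken by name for their known use as markers, and all 10 were found among the 34745 genes of the deposited count table. Myh11, Cnn1, Tagln and Myl9 stand for the contractile apparatus of smooth muscle, and Rgs5, Pdgfrb, Cspg4, Abcc9, Mcam and Higd1b stand for pericytes. The data are 1 library of total RNA from Cipc flox/flox mice, in which the Cipc gene is flanked by loxP sites, and 1 library from Cipc scKO mice, in which the series title places the loss of Cipc in satellite cells, the stem cells of muscle fibres. Both libraries came from the whole gastrocnemius of C57BL/6 mice aged 8 weeks. Neither the Cre line nor the number of animals behind a library is given in the labels. The title also names mdx, a dystrophin mutant, which the labels of these libraries do not mention.

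Mural cells lie on the outside of the endothelial tube. Around arterioles they form rings of smooth muscle that contract when myosin light chain is phosphorylated, and their contractile genes are driven by serum response factor (SRF), which binds a DNA element called the CArG box and acts with coactivators of the myocardin family. Along capillaries they appear as pericytes, which endothelial cells recruit by secreting PDGF-B onto the receptor PDGFRβ, and which Notch3 signalling helps to maintain. In skeletal muscle the capillary bed is dense, so RNA of the whole tissue includes that of pericytes.

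The libraries held 14727219 counts (flox/flox) and 13842100 counts (scKO), and 1 count corresponded to 0.0679 and 0.0722 CPM (counts divided by the library total and multiplied by 1000000). The muscle markers Acta1, Ckm and Myh4 were among the abundant transcripts, with 369713, 281188 and 700136 counts in flox/flox. Cipc counts were 658 (flox/flox) and 111 (scKO), 5.72-fold lower in scKO, which goes with the genotype labels. Counts of whole muscle do not show in which cells Cipc was lost. Ratios below are scKO over flox/flox on the log2 scale after TMM scaling of the library sizes, with a prior count of 0.5. Folds are quotients of the scaled counts without the prior count, so at low counts a fold lies farther from 1 than the log2 ratio beside it. Brackets hold 95% intervals that cover counting error only, because 1 library per genotype leaves the spread between animals unmeasured. No p-value was computed, and each difference is between these libraries, not between genotypes.

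The promoter of Myl9 is shown first because it held the single CArG box match among the 6 members whose promoters were searched. That of Cnn1 is shown because this gene had the lowest ratio of the 10. Each runs 5′ to 3′ over 250 bases before and 50 bases after the RefSeq transcription start in GRCm38.p6. Myl9 lies on the plus strand at chr2:156775214-156775513 and Cnn1 on the plus strand at chr9:22099003-22099302. Capitals mark a CArG box.
Myl9: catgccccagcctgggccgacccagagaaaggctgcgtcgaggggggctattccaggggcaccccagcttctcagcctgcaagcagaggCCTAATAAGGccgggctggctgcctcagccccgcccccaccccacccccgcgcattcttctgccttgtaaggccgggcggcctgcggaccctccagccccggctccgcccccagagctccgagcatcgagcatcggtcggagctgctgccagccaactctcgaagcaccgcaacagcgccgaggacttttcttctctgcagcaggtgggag
Cnn1: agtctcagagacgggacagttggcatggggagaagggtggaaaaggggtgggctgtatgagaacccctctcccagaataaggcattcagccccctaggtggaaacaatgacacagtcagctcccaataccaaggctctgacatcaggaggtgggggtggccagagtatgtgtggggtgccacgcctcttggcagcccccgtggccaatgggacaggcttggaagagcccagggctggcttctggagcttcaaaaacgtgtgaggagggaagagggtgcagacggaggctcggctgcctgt
The match in Myl9 begins 161 bases before the start. CArG boxes were searched by their strict consensus on either strand. Of all 32851 RefSeq promoters of this length, 535 (1.63%) held at least 1 match. Promoters of 6 members, Cnn1, Myl9, Rgs5, Cspg4, Abcc9 and Mcam, were in the table, and Myl9 was the 1 with a match. Those of Myh11, Tagln, Pdgfrb and Higd1b were not used here. For comparison the nonmuscle relative of Cnn1, Cnn2, held a match that begins 56 bases before its start. It is given in capitals with 10 bases on either side, on the plus strand at chr10:79988534-79988563.
Cnn2: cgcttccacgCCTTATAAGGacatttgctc
The E-box CACGTG, which the Cipc partners CLOCK and BMAL1 can bind, was in none of the 6 member promoters and in 7.15% of all promoters. TGGGAA, the core that the Notch effector RBPJ recognises, was found in Abcc9 alone of the 6 and in 25.6% of all promoters. The TATA box TATAAA was in none of the 6 and in 13.6% of all. All were searched on both strands, and a match in these windows describes letters, not binding.

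Mural transcripts were present in both libraries over a wide range of levels. On the scale of the deposited FPKM values, which divide counts by gene length, the order in flox/flox was Rgs5 (70.2), Abcc9 (24.5), Tagln (11.9), Myl9 (11.8), Mcam (4.82), Myh11 (3.99), Pdgfrb (3.92), Higd1b (1.89), Cspg4 (1.34) and Cnn1 (0.516). In scKO the same scale gave Rgs5 70.0, Abcc9 27.1, Tagln 14.6, Myl9 9.94, Pdgfrb 4.51, Myh11 4.39, Mcam 3.65, Cspg4 1.17, Higd1b 1.01 and Cnn1 0.122. Rgs5 and Abcc9 therefore led the order and Cnn1 closed it in each library. Counting intervals of neighbours overlapped for Tagln and Myl9, for Mcam and Myh11, for Myh11 and Pdgfrb and for Higd1b and Cspg4 in flox/flox. In scKO they overlapped for Pdgfrb and Myh11, for Myh11 and Mcam and for Cspg4 and Higd1b, while Tagln (13.1 to 16.3) and Myl9 (8.83 to 11.2) were apart. The lengths behind the FPKM are shorter than the merged exons of GENCODE M21 for Myh11, Cnn1, Tagln and Cspg4 (8050 against 11931 bases) and longer for the other 6 members, such as Myl9 (2107 against 1162 bases). With the merged exons as lengths, Myl9 (21.4) stood above Tagln (9.46) and Pdgfrb (5.50) above Myh11 (3.48) in flox/flox.

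**Figure D1:**
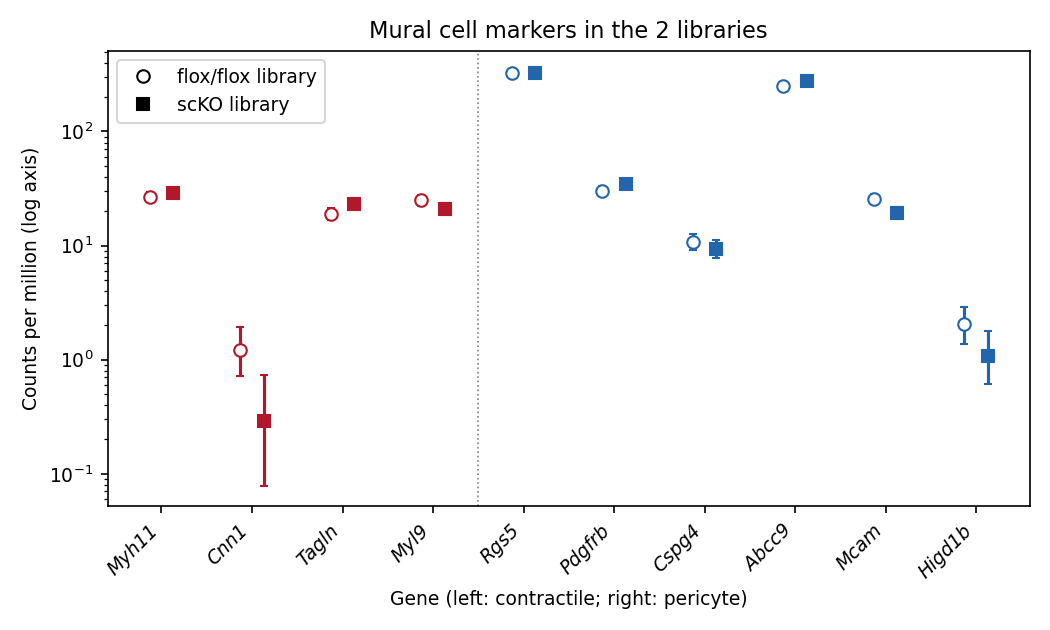
CPM (log axis) of the 10 markers in the flox/flox library (open circles) and the scKO library (filled squares), with contractile genes in red and pericyte genes in blue; bars are exact 95% binomial intervals of the count. Rgs5 (326 and 325) and Abcc9 (252 and 278) are the highest, and Cnn1 and Higd1b, the lowest of the 10, have the widest bars.

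The contractile genes did not shift in a single direction. Of the 4, Tagln had an interval above 0, Myl9 and Cnn1 had intervals below 0, and that of Myh11 included 0. Over all 12662 genes with a summed count of at least 20, which were the genes tested, the interval lay above 0 for 12.8% and below 0 for 12.3%. These shares are not matched for counts, and with many counts even a small ratio can have an interval apart from 0. Under total-count scaling these shares became 16.6% and 9.70%, and the part of called genes that was higher moved from 50.9% to 63.1%. The median of the 4 was −0.095, beside 0.0021 over all tested genes. Over the 10 markers together, 2 intervals lay above 0, 4 below and 4 included it.

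Myh11 encodes the smooth muscle myosin heavy chain, the motor of the contractile filament and the marker most restricted to smooth muscle. Its counts were 390 (flox/flox) and 403 (scKO), a log2 ratio of 0.10 (−0.11 to 0.30). The libraries were thus within counting error of each other for this gene. Its nonmuscle relatives Myh9 (842 and 811 counts) and Myh10 (498 and 521) also had intervals that include 0, at −0.0030 and 0.12. Myh14, a further nonmuscle heavy chain, was lower with 814 and 552 counts (−0.51, −0.67 to −0.35).

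Tagln encodes transgelin (SM22α), an actin-binding protein of the calponin family. The gene maps to the minus strand of chromosome 9, 45929619 to 45936058 in GRCm38. Its counts were 277 (flox/flox) and 321 (scKO), a ratio of 0.26 (0.027 to 0.50). Its exons share 108 bases with Pcsk7 on the opposite strand, which had 161 and 162 counts. Gm48529, an antisense gene of GENCODE M21 that is not in the deposited count table, overlaps 1241 of the 1988 merged exon bases of Tagln. Without a known strand setting, reads of these stretches cannot be assigned to 1 gene. The scKO library was the higher of the pair by 1.20-fold. Its relative Tagln2 went the other way, with 237 and 175 counts (−0.39, −0.68 to −0.10).

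Myl9 encodes the regulatory myosin light chain of smooth muscle, whose phosphorylation switches contraction on. The gene lies at 156775420 to 156781658 on the plus strand of chromosome 2. Its counts were 367 (flox/flox) and 290 (scKO), a ratio of −0.29 (−0.52 to −0.062). The scKO library was therefore the lower one, and the quotient of Tagln over Myl9 differed between the libraries by 0.55 (0.22 to 0.88) on the log2 scale. Where the summed count was at least 200 and under 1000, the class of Myh11, Tagln, Myl9, Pdgfrb, Cspg4 and Mcam, intervals lay below 0 for 11.1% and above 0 for 12.2%. The ubiquitous light chains Myl12a (3579 and 3391 counts) and Myl12b (203 and 187) had intervals that include 0. Exons of Myl12a share 207 bases with Myom1 on the opposite strand, which had 24722 and 21984 counts. Without a known strand setting, reads of that stretch cannot be assigned to 1 gene.

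Cnn1 encodes calponin 1, which binds actin and restrains the myosin motor in differentiated smooth muscle. The gene maps to the plus strand of chromosome 9, 22099216 to 22109630. Its counts were 18 (flox/flox) and 4 (scKO), which is 1.22 CPM (exact binomial interval 0.724 to 1.93) and 0.289 CPM (0.0787 to 0.740). The log2 ratio was −1.99 (−4.14 to −0.52). Without the prior count the scaled counts were 4.34-fold lower in scKO, and Cnn1 was the member past 2-fold. Over all tested genes 1.91% were at least 2-fold lower and 1.49% at least 2-fold higher with an interval excluding 1. Of the 1496 genes whose summed count was at least 20 and under 50, as that of Cnn1 is, 8.02% were at least 2-fold lower with an interval excluding 1. With so few counts the size of the Cnn1 difference is poorly fixed. The quotient of Cnn1 over Tagln was 0.0650 in flox/flox and 0.0125 in scKO, a log2 difference of −2.38 (−4.42 to −0.75). Its relatives were better counted: Cnn3 had 194 and 135 counts (−0.47, −0.80 to −0.15) and Cnn2 97 and 89 (−0.073, −0.50 to 0.36).

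The pericyte genes were also divided. Abcc9 had an interval above 0, Mcam and Higd1b had intervals below 0, and Rgs5, Pdgfrb and Cspg4 had intervals that include 0. Over all tested genes 12.8% of intervals lay above 0 and 12.3% below, shares that are not matched for counts. The interval of Abcc9 is narrow because of its many counts (3711 and 3854). The median of the 6 was −0.14. With total-count scaling the interval of Pdgfrb moved above 0 (0.013 to 0.39) and that of Higd1b came to include 0 (−1.91 to 0.029).

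Rgs5 encodes a regulator that speeds GTP hydrolysis on G proteins and is a standard pericyte marker. It maps to the plus strand of chromosome 1, 169655501 to 169695813. Its counts were 4804 (flox/flox) and 4504 (scKO), a ratio of −0.042 (−0.10 to 0.017). The libraries were alike to within counting error at the highest depth of the 10 genes. In the same RGS subfamily, Rgs2, which acts on Gq signalling, was 2.19-fold higher, with 140 and 296 counts (1.13, 0.84 to 1.43). Rgs4, another RGS gene used as a pericyte marker, had 83 and 82 counts (0.033, −0.42 to 0.49).

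Pdgfrb encodes the receptor through which PDGF-B recruits pericytes. Its counts were 444 (flox/flox) and 480 (scKO), a ratio of 0.16 (−0.026 to 0.35). The ligand gene Pdgfb, which endothelial cells express, had 319 and 330 counts (0.10, −0.13 to 0.33). The quotient of receptor over ligand counts was 1.39 and 1.45, with an interval of its log2 difference from −0.23 to 0.36. The sister receptor Pdgfra, a marker of fibro-adipogenic progenitors, was lower in scKO with 252 and 178 counts (−0.45, −0.74 to −0.17). The quotient of Pdgfrb over Pdgfra counts was 1.76 in flox/flox and 2.70 in scKO, a log2 difference of 0.61 (0.27 to 0.96).

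Cspg4 encodes NG2, a proteoglycan on the pericyte surface that is also made by glial precursor cells. Its counts were 159 (flox/flox) and 130 (scKO), a ratio of −0.24 (−0.58 to 0.10). At this depth a difference between the libraries was not detectable.

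Abcc9 encodes SUR2, the regulatory subunit of ATP-sensitive potassium channels, which pair it with Kir6.1 (Kcnj8) in mural cells and with Kir6.2 (Kcnj11) in striated muscle. Its counts in whole muscle therefore cannot be assigned to pericytes alone. The gene maps to the minus strand of chromosome 6, 142587862 to 142702315, and Kcnj8 lies beside it on the same strand, at 142564837 to 142571614. Abcc9 counts were 3711 (flox/flox) and 3854 (scKO), a ratio of 0.11 (0.040 to 0.17). Kcnj8 had 209 and 231 counts (0.20, −0.081 to 0.47), and Kcnj11 had 585 and 490 (−0.20, −0.38 to −0.029). The quotient of Kcnj8 over Kcnj11 counts was 0.357 in flox/flox and 0.471 in scKO, a log2 difference of 0.40 (0.070 to 0.73). The quotient was thus higher in scKO, while the interval of Kcnj8 itself includes 0 and that of Kcnj11 lies below 0. Abcc8, the SUR1 gene of pancreatic beta cells, had 20 and 16 counts.

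Mcam encodes the adhesion molecule CD146, which pericytes and smooth muscle cells carry and which endothelial cells also express. It maps to the plus strand of chromosome 9, 44134469 to 44142727. Its counts were 378 (flox/flox) and 269 (scKO), a ratio of −0.44 (−0.67 to −0.21), or 1.36-fold lower. Among the members with over 100 counts, this was the lowest ratio. Of the 14 endothelial markers, 3 had intervals above 0 and 1 below (12.8% and 12.3% over all tested genes), and 10 had intervals across it. Their part in the Mcam ratio was not tested.

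Higd1b encodes a small mitochondrial protein of the HIG1 domain family whose transcript marks pericytes. It maps to the plus strand of chromosome 11, 102835849 to 102838040. Its counts were 30 (flox/flox) and 15 (scKO), a ratio of −0.93 (−1.95 to −0.0094). Without the prior count the scaled counts were 1.93-fold lower in scKO, on few counts and with an interval that closes just short of 0. The widely expressed relative Higd1a had 413 and 420 counts (0.075), and the quotient of Higd1b over Higd1a was 0.0726 and 0.0357, a log2 difference of −1.02 (−2.05 to −0.059).

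**Figure D2:**
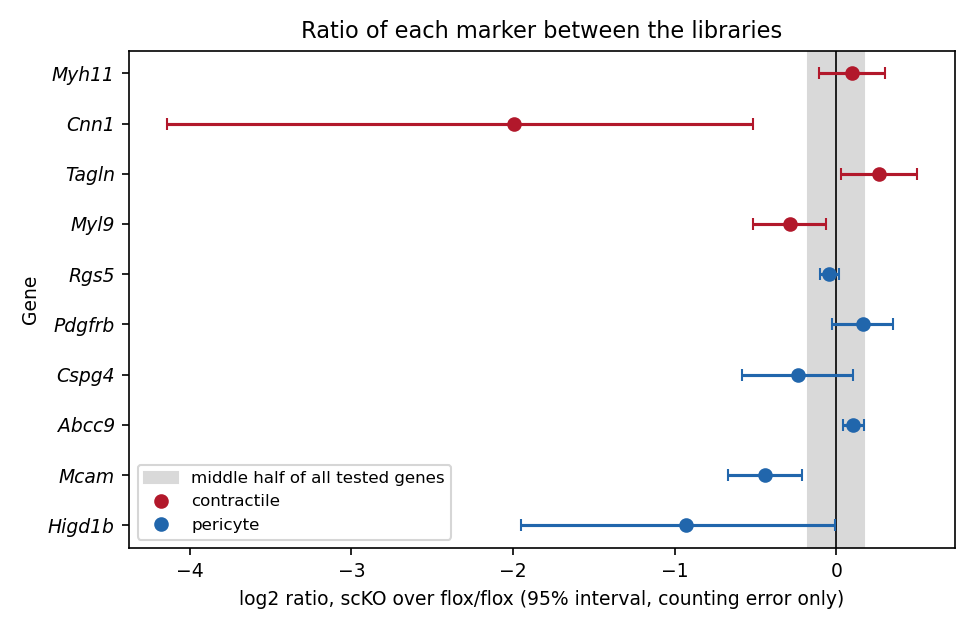
Log2 ratio of scKO over flox/flox for each of the 10 markers with 95% intervals that cover counting error only; the grey band spans the quartiles of all tested genes, −0.18 to 0.17. Red contractile genes and blue pericyte genes each lie on both sides of 0, and Cnn1 and Higd1b stand farthest to the left with the widest intervals.

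Contractile and pericyte markers as groups did not differ from each other beyond counting error. The contractile counts summed to 1052 in flox/flox and 1018 in scKO, a ratio of 0.0038 (−0.12 to 0.13). The pericyte counts summed to 9526 and 9252, a ratio of 0.0090 (−0.032 to 0.050). The quotient of contractile over pericyte counts was 0.110 in each library, with an interval of its log2 difference from −0.14 to 0.13. The medians of the groups were negative while the sums lay just above 0. The sums are led by few genes: Rgs5 and Abcc9 gave 89.4% of the pericyte counts in flox/flox and 90.3% in scKO. With those genes left out, an alternative chosen after seeing the data, the quotient was 1.04 and 1.14 (log2 difference 0.13, −0.053 to 0.31). Without Myh11 and Rgs5, the best counted members, the log2 difference had the other sign (−0.11). In bulk tissue, fewer cells of a type and less RNA per cell cannot be told apart.

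Of the 45 pairs of members, 27 had a quotient that differed between the libraries beyond counting error (95% interval of its log2 difference apart from 0). This held for 5 of 6 pairs within the contractile group, 8 of 15 within the pericyte group and 14 of 24 between the groups. Cnn1 took part in 8 of these pairs, and Cspg4, with 3, in the fewest. Intervals were not adjusted for the number of pairs, and the pairs share genes, so they are not separate observations. Pairs of other genes were not counted. Whether 27 of 45 is more than usual is thus not known, and these numbers describe the members alone.

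The other genes of contractile smooth muscle, a list of 20, were mixed in the same way. Of 17 tested, 5 had intervals above 0 and 4 below (12.8% and 12.3% over all tested genes), and 8 had intervals across it. The median of the list was −0.0046. Acta2, the smooth muscle α-actin, had 419 and 443 counts (0.13, −0.064 to 0.33). The smooth muscle kinase gene Mylk had 317 and 267 (−0.20, −0.44 to 0.043), and the contractile marker smoothelin, Smtn, had 1188 and 1143. Higher in scKO were Lmod1, a nucleator of actin filaments (77 and 127 counts, 0.77, 0.35 to 1.20), and Sncg, the γ-synuclein gene (17 and 44 counts, 1.40, 0.59 to 2.32). Synpo2 stood far from the rest. It encodes an actin-bundling protein of the Z-disc that striated fibres make as well, and its counts were 280 (flox/flox) and 6242 (scKO), 23.1-fold higher (4.53, 4.36 to 4.71). The gene maps to the minus strand of chromosome 3, 123076519 to 123236149, and none of its exons overlap those of another gene in GENCODE M21. The length behind its FPKM was 22866 bases, beside 19244 bases for all its distinct exons in GENCODE M21 added up. The counted gene may therefore hold stretches that this overlap check did not cover. Tpm2, Des and Ldb3, which muscle fibres express (48058, 36135 and 27523 counts in flox/flox), also belong to this list, so its sum does not describe smooth muscle.

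Regulators of the contractile program form a list of 12, of which 9 were tested. Nkx3-2 and Myocd had 0 counts in both libraries, and Gata6 had 0 and 6. For Myocd, the coactivator that drives smooth muscle genes with SRF, a count of 0 allows up to 0.204 CPM (flox/flox) and 0.217 CPM (scKO). Srf had 1057 and 955 counts (−0.095, −0.22 to 0.032), Mrtfa 375 and 403 (0.15, −0.051 to 0.36) and Mrtfb 598 and 562 (−0.038, −0.21 to 0.13). These factors are widely expressed, and none had an interval apart from 0. Klf4, which represses contractile genes in smooth muscle, was lower with 577 and 395 counts (−0.50, −0.68 to −0.31). Prrx1, a mesenchymal homeobox factor, was lower with 1071 and 537 (−0.94, −1.10 to −0.79), and Smad3, a TGF-β effector, was higher with 1119 and 1321 (0.29, 0.17 to 0.41). Of the 9 tested genes, 2 had intervals above 0 and 2 below (12.8% and 12.3% over all tested genes).

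In the list of myosin light chain phosphorylation, 3 of 17 tested genes had intervals above 0 and 4 below (12.8% and 12.3% over all tested genes). The median of the list was −0.047. The members with the lowest ratios were Calm3 (5528 and 4283 counts, −0.32, −0.37 to −0.26) and Mylk4 (39499 and 30671 counts, −0.31, −0.34 to −0.29), a calmodulin gene and a kinase gene of striated muscle. Rock2, the kinase that sustains contraction by inhibiting myosin phosphatase, had 2119 and 1791 counts (−0.19, −0.28 to −0.10). Most of these genes are expressed in fibres too.

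The list of 20 other pericyte genes was tested in full. In it, 2 had intervals above 0 and 4 below (12.8% and 12.3% over all tested genes), and 14 had intervals across it. The median of the list was −0.0056. Its 4 best counted genes, Art3, Notch3, Steap4 and Kcnj8, had intervals that include 0. Art3 had 1321 and 1265 counts (−0.011, −0.12 to 0.10), the receptor gene Notch3 had 329 and 364 (0.20, −0.022 to 0.42) and Steap4 had 327 and 347 (0.14, −0.085 to 0.36). Heyl, a Notch target, had 128 and 127 (0.040, −0.33 to 0.41). Lower in scKO was Vtn, the vitronectin gene, with 185 and 137 counts (−0.38, −0.71 to −0.056). The transcription factor gene Ebf1 was 2.50-fold lower, with 132 and 51 counts (−1.31, −1.82 to −0.84). Foxs1, a forkhead gene of perivascular cells, had 21 and 5 counts (−1.92, −3.78 to −0.57), and Gm13889 had 27 and 8 (−1.64, −3.05 to −0.53). Ebf1 is also expressed by adipocyte and B-lineage cells, so its counts are not those of pericytes alone. Atp13a5 had the highest ratio of the list (30 and 54 counts, 0.89, 0.23 to 1.59).

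Genes of signalling between endothelium and mural cells differed in both directions. Of 25 tested genes, 3 had intervals above 0 and 6 below (12.8% and 12.3% over all tested genes), and 16 had intervals across it. The median of the list was 0.047. The angiopoietin receptor gene Tek had 247 and 299 counts (0.33, 0.079 to 0.58), while the gene of its mural ligand Angpt1 had 331 and 255 (−0.32, −0.57 to −0.085). The endothelin receptors were opposed as well, with Ednra, the receptor that constricts smooth muscle, at 25 and 47 counts (0.95, 0.23 to 1.72) and Ednrb at 186 and 123 (−0.54, −0.89 to −0.21). The sphingosine phosphate receptor gene S1pr1, abundant in endothelium, had 509 and 591 counts (0.27, 0.093 to 0.44). Adra1a, an adrenergic receptor gene, had 56 and 34 (−0.66, −1.33 to −0.029). The TGF-β ligand genes Tgfb2 (278 and 212 counts) and Tgfb3 (489 and 395) were lower, at −0.34 and −0.26, with intervals below 0.

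**Figure D3:**
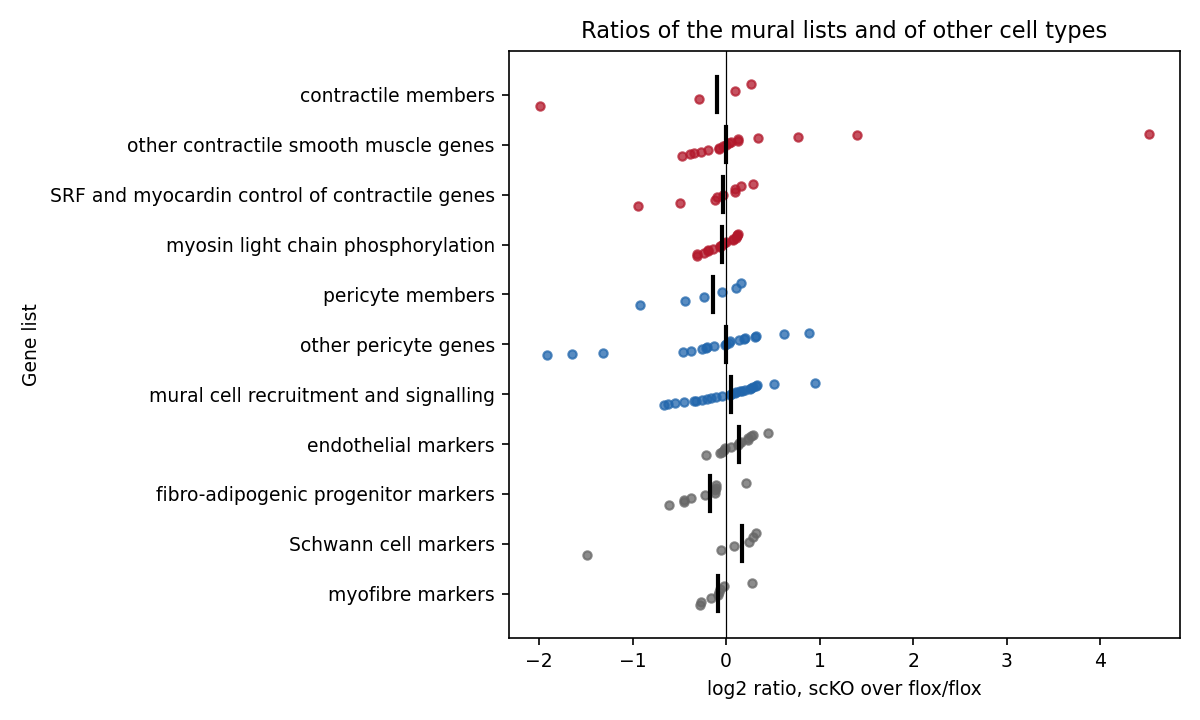
Log2 ratios of scKO over flox/flox for the tested genes of each list, 1 point per gene, with a black bar at the median; contractile lists are red, pericyte and signalling lists blue, and other cell types grey. Medians of the mural lists lie between −0.14 and 0.047, and the point at 4.53 is Synpo2.

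Markers of some neighbouring cell types differed between the libraries beside the mural genes. The 14 endothelial markers summed to 499 CPM (flox/flox) and 573 CPM (scKO), a ratio of 0.16 (0.12 to 0.21), and their median was 0.13. Flt1 (834 and 1102 counts) and Fabp4 (2208 and 2507) had intervals above 0, and Cd34 (605 and 502) had an interval below 0. The quotient of pericyte over endothelial counts was 1.297 in flox/flox and 1.166 in scKO, a log2 difference of −0.15 (−0.21 to −0.091). Without Rgs5 and Abcc9 it was 0.138 and 0.113 (−0.29, −0.43 to −0.15), and the quotient of contractile over endothelial counts gave −0.16 (−0.29 to −0.024). These differences rest in part on Fabp4 and Flt1. Without them, an alternative chosen after seeing the data, the other 12 endothelial markers summed to 4305 and 4325 counts (0.058, −0.0034 to 0.12). The quotient over these 12 then differed by −0.049 (−0.12 to 0.025) for the pericyte genes and by −0.054 (−0.19 to 0.086) for the contractile genes, with intervals that include 0. For the pericyte genes without Rgs5 and Abcc9 it differed by −0.18 (−0.33 to −0.039). Of the 1011 and 894 counts of these genes, Mcam gave 378 and 269 and Pdgfrb 444 and 480. Endothelial cells also express Mcam, and this last quotient was not computed without Mcam, so it does not describe pericyte genes in general. The 10 markers of fibro-adipogenic progenitors, mesenchymal cells that can also express Pdgfrb, summed to 1138 and 1015 CPM (−0.20, −0.24 to −0.17), with 7 intervals below 0. Over all tested genes 12.3% lay below 0, a share that is not matched for counts. Schwann cell markers, relevant to Mcam and Cspg4, summed to 47.1 and 47.4 CPM (−0.030, −0.19 to 0.13). The 8 myofibre markers, all with many counts, summed to 119638 and 112901 CPM (−0.122, −0.125 to −0.119), with 7 intervals below 0 and 1 above. The part of these cell types in the ratios of the members was not tested.

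**Figure D4:**
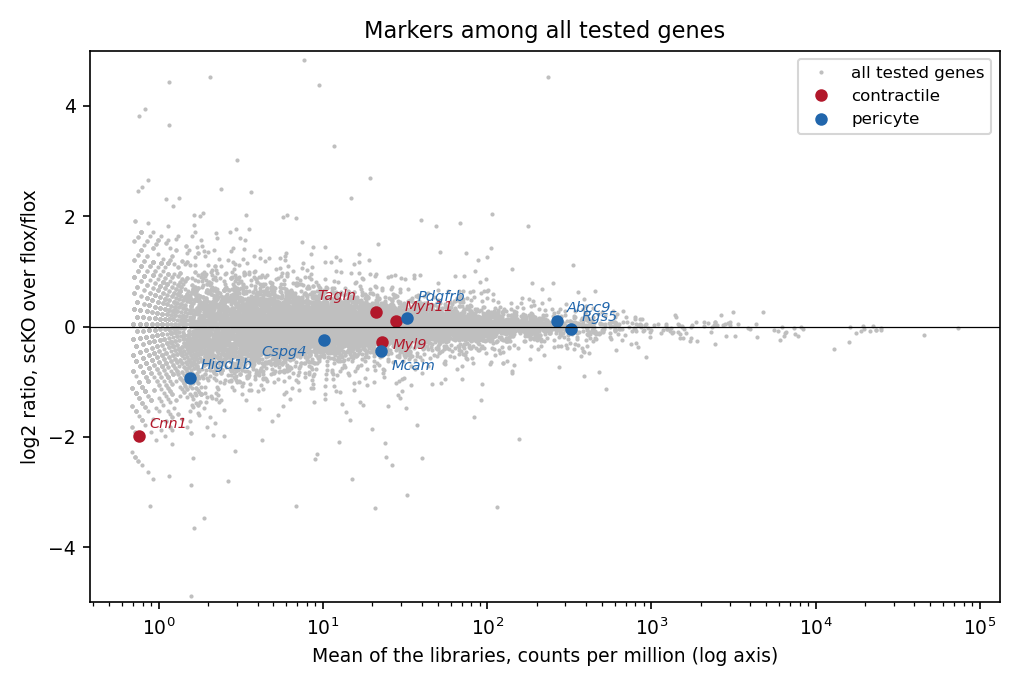
Log2 ratio of scKO over flox/flox against mean CPM (log axis) for all tested genes (grey) and the 10 markers (red contractile, blue pericyte); 12 genes beyond a log2 ratio of 5 in size are outside the plot. Cnn1 and Higd1b lie at low counts where the grey cloud is widest, and Rgs5 and Abcc9 lie near 0 where it is narrow.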

How the data were processed

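RNA was sequenced from whole gastrocnemius in 2 libraries, 1 per genotype. The authors deposited whole-number counts per Ensembl gene and, per the file headers, FPKM values with 1 column per library. Per the submitters' processing notes, CASAVA, HISAT2 2.0.4 and StringTie 1.3.0 were used with GRCm38; their roles, the annotation, the strand setting and the treatment of reads matching several genes are not given in the sources used here. Lengths implied by the FPKM and the counts agreed between the libraries to within 0.0198% over 11572 genes, so each count column goes with its FPKM file. Symbols came from a reference table that named 34267 of 34745 identifiers; positions and exons came from GENCODE M21 and promoters from RefSeq.

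Library sizes were scaled by TMM (edgeR 4.0.16, R 4.3.3). Log2 ratios used a prior count of 0.5, folds and sums none, intervals were exact conditional binomial (Clopper-Pearson) at 95%, and quotients between genes had exact conditional intervals for an odds ratio. Intervals and the limit for 0 counts (3 counts) cover counting error only; reads carry no molecular identifiers. Genes with a summed count of at least 20 were tested, and the 2-fold call also needed an interval excluding 1. The procedure was tested on simulated counts. Python 3.11.15, numpy 2.4.6, scipy 1.17.1, pandas 2.3.3 and matplotlib 3.10.9 were used. Alternatives were total-count, DESeq2 1.42.0 and upper-quartile scaling, total counts without mitochondrial genes, a prior count of 5, log2(FPKM + 0.1), and count minimums of 100 and none.

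Named genes were the 10 members, Cipc, relatives and channel partners of the members, and from each other list the best counted gene and up to 5 genes with intervals apart from 0; not all of these are printed, and 1 gene is not reported here. Pcsk7 and Gm48529 were named after their overlap with Tagln was seen, and Steap4, Gata6 and Nkx3-2 after their counts were seen. Members and lists were chosen with earlier results of these data known.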

Additional observations from a re-analysis of the deposited data

How the results depend on the processing

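No paired analysis was possible because each genotype has 1 library. The log2 ratios of the 10 members stayed within their counting intervals, with the same sign, under all 6 alternatives tried for each; the widest range was that of Cnn1, from −2.001 to −1.32. The sums also stayed within their counting intervals under every scaling, with a prior count of 5 and on the FPKM scale. Their values near 0 changed sign, and with DESeq2 scaling they stood at −0.0058 (contractile) and −0.00047 (pericyte). The contractile minus pericyte difference was −0.0053 by counts and 0.034 on the FPKM scale. The medians of the groups, which are a description and were not tested, were negative under all of these alternatives. The summed pericyte ratio was 0.059 without Rgs5, which is outside its counting interval with all members (−0.032 to 0.050). The contractile minus pericyte difference was −0.11 without Myh11 and Rgs5, the best counted members, and 0.060 without Abcc9. It was 0.130 without Rgs5 and Abcc9, the alternative chosen after seeing the data. That value is just above the upper end of the counting interval with all members (0.127). Its sign thus depended on which genes were left out. Without Fabp4 and Flt1 in the endothelial sum, the quotients over endothelial counts differed by −0.049 (pericyte) and −0.054 (contractile), with intervals that now include 0. With a count minimum of 100, 58 genes were at least 2-fold higher and 68 lower, beside 189 and 242, and with no minimum 369 were lower; fewer or more genes were tested by construction. A minimum of 100 leaves out Cnn1 and Higd1b, whose few counts limit what can be said of them, and moves the medians to 0.098 (contractile) and −0.042 (pericyte). No replicate could be left out.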
